A study of Mus musculus with 2 samples.

Results

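The cells described here are oligodendrocytes of the Nf1OPG mouse optic nerve that carried RNA of Hopx, Nkx2-9, Dpysl5 or Barx2. A cell was taken as an oligodendrocyte where the UMIs (unique molecular identifiers, 1 for each captured RNA molecule) of Mag, Mog, Ermn and Aspa summed to at least 4 and Ptprc had 0. It became a member where Hopx, Nkx2-9, Dpysl5 and Barx2 summed to at least 2 UMIs (the marker sum), Serpina3n and C4b to at most 2, and the interferon-induced genes Iigp1, Igtp and Tgtp2 to at most 2. By this rule 1511 of 8440 oligodendrocytes, and of 25652 kept cells in all, were members. All of these genes were chosen on the same counts, so their levels are given as a description and without a test.

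The study used mice that develop a low-grade glioma of the optic nerve and compared treatments of this tumor. Both single-cell libraries, C-ON and FMC_new, were optic nerve with the genotype label NF1-OPG, pooled from 10 mice aged 12 weeks, and the sample title of C-ON holds the word control. In these mice 1 Nf1 allele is mutant in all cells and the other is lost in cells with a history of GFAP-Cre, so the oligodendrocytes counted here are a mixture that the counts cannot sort by Nf1 status. There was 1 condition, so the libraries were set side by side and no test between groups was made. Cells of 1 library are not replicates, each library is a pool, and all intervals below are 95% intervals of counting error alone.

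Oligodendrocytes wrap axons in myelin, a stack of membrane rich in cholesterol and in sphingolipids, and they differ among themselves once mature. Klk6, Hopx and Anxa5 are known as genes of a mature type common in white matter of the hindbrain and spinal cord, whereas Ptgds and Il33 are known from another mature type common in the forebrain. Hopx is a small homeodomain protein that does not bind DNA itself, Nkx2-9 and Barx2 are homeobox transcription factors, and Dpysl5 is a collapsin response mediator protein that acts on microtubules.

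On GRCm38, Hopx lies at chr5:77086988-77115121 on the minus strand, Nkx2-9 at chr12:56611389-56613284 on the minus strand, Dpysl5 at chr5:30711564-30799375 on the plus strand and Barx2 at chr9:31846044-31913462 on the minus strand. The promoters of 3 genes of the rule, and of Klk6 and Ptgds, which stand at the ends of the comparison below, are shown because the groups were chosen on the first and differed in the others. They are RefSeq sequences of GRCm38.p6, from 250 bases before to 50 after the start of the gene, read 5′ to 3′ on the strand of the gene, and for Klk6 and Ptgds this start lies inside the longer gene span given for GRCm38. Capitals mark the SOX core ACAAAG and the NKX2 core AAGTG, searched on both strands (CTTTGT and CACTT on the other), and the motifs do not overlap in these sequences. The SOX core is found in 18.7% and the NKX2 core in 46.4% of 32851 mouse promoters of this length.
Hopx, chr5:77115074-77115373: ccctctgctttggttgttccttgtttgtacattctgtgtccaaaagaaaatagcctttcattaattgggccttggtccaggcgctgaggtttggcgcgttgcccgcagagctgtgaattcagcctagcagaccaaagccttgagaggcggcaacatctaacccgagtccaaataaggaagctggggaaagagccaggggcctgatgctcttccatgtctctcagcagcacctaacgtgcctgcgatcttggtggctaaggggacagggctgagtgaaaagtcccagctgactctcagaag
Nkx2-9, chr12:56613235-56613534: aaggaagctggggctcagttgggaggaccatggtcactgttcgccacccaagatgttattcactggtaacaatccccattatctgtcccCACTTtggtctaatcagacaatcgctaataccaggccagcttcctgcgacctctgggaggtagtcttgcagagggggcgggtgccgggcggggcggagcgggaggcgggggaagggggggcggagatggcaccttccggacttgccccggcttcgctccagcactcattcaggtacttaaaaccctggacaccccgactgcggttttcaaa
Dpysl5, chr5:30711314-30711613: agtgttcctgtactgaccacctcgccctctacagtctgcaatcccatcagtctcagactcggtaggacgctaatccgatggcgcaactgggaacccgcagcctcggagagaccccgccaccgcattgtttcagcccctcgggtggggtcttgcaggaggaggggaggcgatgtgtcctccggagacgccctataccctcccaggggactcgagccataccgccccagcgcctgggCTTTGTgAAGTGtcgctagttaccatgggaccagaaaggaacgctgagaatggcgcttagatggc
Klk6, chr7:43824294-43824593: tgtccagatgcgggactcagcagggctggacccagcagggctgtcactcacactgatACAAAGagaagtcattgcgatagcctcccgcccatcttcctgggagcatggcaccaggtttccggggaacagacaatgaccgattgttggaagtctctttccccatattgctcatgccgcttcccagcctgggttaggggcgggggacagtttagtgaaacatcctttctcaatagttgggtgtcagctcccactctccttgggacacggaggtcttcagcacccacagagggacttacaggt
Ptgds, chr2:25469700-25469999: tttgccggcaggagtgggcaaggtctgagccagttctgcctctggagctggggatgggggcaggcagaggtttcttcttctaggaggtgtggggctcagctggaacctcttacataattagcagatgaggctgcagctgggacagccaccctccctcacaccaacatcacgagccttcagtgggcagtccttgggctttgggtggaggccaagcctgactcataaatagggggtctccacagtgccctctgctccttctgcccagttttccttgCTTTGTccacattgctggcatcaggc
Hopx held neither motif, Nkx2-9 held 1 NKX2 core, Dpysl5 held 1 of each, and Klk6 and Ptgds held 1 SOX core each. These matches describe letters and were not tested as binding sites.

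The libraries were unequal in make-up. C-ON held 8834 kept cells of 10845 barcodes and FMC_new held 16818 of 21341. Of these kept cells, oligodendrocytes made up 66.2% in C-ON but 15.4% in FMC_new. RNA of the pituitary hormone gene Gh was found in 100% of the members in FMC_new, at 24.1 UMIs a cell, and had 0 UMIs in the members of C-ON. That of Prl, another such gene, was found in 96.5% of the members in FMC_new, at a mean of 84.0 UMIs a cell, and had 0 in C-ON. Jchain, a gene of plasma cells, was found in 44.8% of the members of C-ON and 98.2% of those of FMC_new. The libraries shared 188 barcodes among kept cells, of which 0 were members in both.

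Myelin genes outside the rule were read against T cells, which should lack them, because myelin RNA was found in all classes of cells. At 2000 UMIs a cell, Cnp was found in 99.4% of the members of C-ON and 98.0% of those of FMC_new, against 27.4% and 16.7% of T cells. Cldn11 was found in 98.5% and 93.8% against 12.8% and 5.24%, and Mal in 98.7% and 94.9% against 14.5% and 6.05%. Mbp says less, since it was found in 85.2% and 89.1% of T cells, but its level was 7530 CPM (UMIs in 1000000 of all genes) in the members and 2771 in T cells of C-ON, and 8058 and 3131 in FMC_new. Mobp stood at 2085 against 261 in C-ON and 1929 against 298 in FMC_new. Opalin, a myelin glycoprotein, was found after thinning in 25.7% and 18.5% of the members against 3.51% and 1.22% of T cells. The 2 markers in the name of this group were not equally common. Hopx was found in 94.9% of the members of C-ON and 95.6% of those of FMC_new. Nkx2-9 was found in 41.7% and 26.1%, Dpysl5 in 41.5% and 29.2%, and Barx2 in 39.8% and 27.9%. Hopx alone, with 0 UMIs of the other markers, made up 23.7% of the members of C-ON and 41.2% of those of FMC_new, while 71.2% and 54.4% had Hopx with another marker and 9.81% and 5.31% had all 4. Only 5.06% and 4.42% were members without a UMI of Hopx.

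The other oligodendrocytes used for comparison met the same limits on Serpina3n, C4b and the interferon genes and had a marker sum of at most 1, which gave 2835 cells in C-ON and 837 in FMC_new. The members had more UMIs a cell than these, with medians of 9654 against 6215 in C-ON and 7638 against 4632 in FMC_new. Levels are therefore given as CPM, summed over the cells of a group in a library. Hopx stood at 606 in the members and 24.7 in the others of C-ON and at 633 and 28.3 in FMC_new. Nkx2-9 stood at 67.9 and 3.12 in C-ON and at 48.1 and 2.50 in FMC_new. Mog, part of the oligodendrocyte side of the rule, was nearly level between them, at 2034 against 2172 in C-ON and 1569 against 1551 in FMC_new. Serpina3n stood at 67.6 and 61.3 in C-ON and at 64.9 and 75.1 in FMC_new.

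The 4 markers were chosen together on these counts, so how they go together is a description and not a test. Each was left out in turn, oligodendrocytes with neither the Serpina3n nor the interferon program were chosen on the other 3 (a sum of at least 2 against 0), and the gene left out was measured. Hopx was then 8.92-fold higher (8.42 to 9.45) in C-ON and 5.73-fold higher (5.06 to 6.50) in FMC_new. Nkx2-9 was 11.9-fold (9.36 to 15.3) and 10.1-fold (5.65 to 19.4) higher. Dpysl5 was 6.25-fold (5.25 to 7.48) and 5.11-fold (3.32 to 8.04) higher, and Barx2 11.2-fold (8.85 to 14.3) and 7.76-fold (4.49 to 14.1). Even so, few members held all of them, and a left-out Nkx2-9 was found in 38.9% and 23.4% of the cells chosen.

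At equal depth, genes outside the rule could be set beside Hopx. Among oligodendrocytes with neither program, thinned to 2000 UMIs, those with a UMI of Hopx numbered 865 in C-ON and 171 in FMC_new. Klk6, a secreted serine protease, was found in 85.4% of them against 39.0% of the cells without Hopx in C-ON, and in 80.1% against 33.1% in FMC_new. Ptgds, a prostaglandin D synthase, went the other way, with 22.3% against 57.6% in C-ON and 32.7% against 65.9% in FMC_new.

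Hopx was also common in T cells, whereas the other 3 markers were rare there. At 2000 UMIs a cell, Hopx was found in 58.9% of the members of C-ON and 65.6% of those of FMC_new, and also in 41.6% and 36.4% of T cells. In B and plasma cells it was found in 3.25% and 4.13%, and in microglia and macrophages in 10.0% and 6.03%. In full-depth counts, T cells had Hopx in 56.4% and 49.4% of cells at median depths of 3280 and 3154 UMIs. Nkx2-9 was found, after thinning, in 13.2% and 9.74% of the members and in 0.319% and 0.258% of T cells. Of all UMIs in kept cells, oligodendrocytes held 95.3% of those of Nkx2-9 in C-ON and 84.3% in FMC_new, against 86.6% and 39.6% of those of Hopx.

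**Figure D1:**
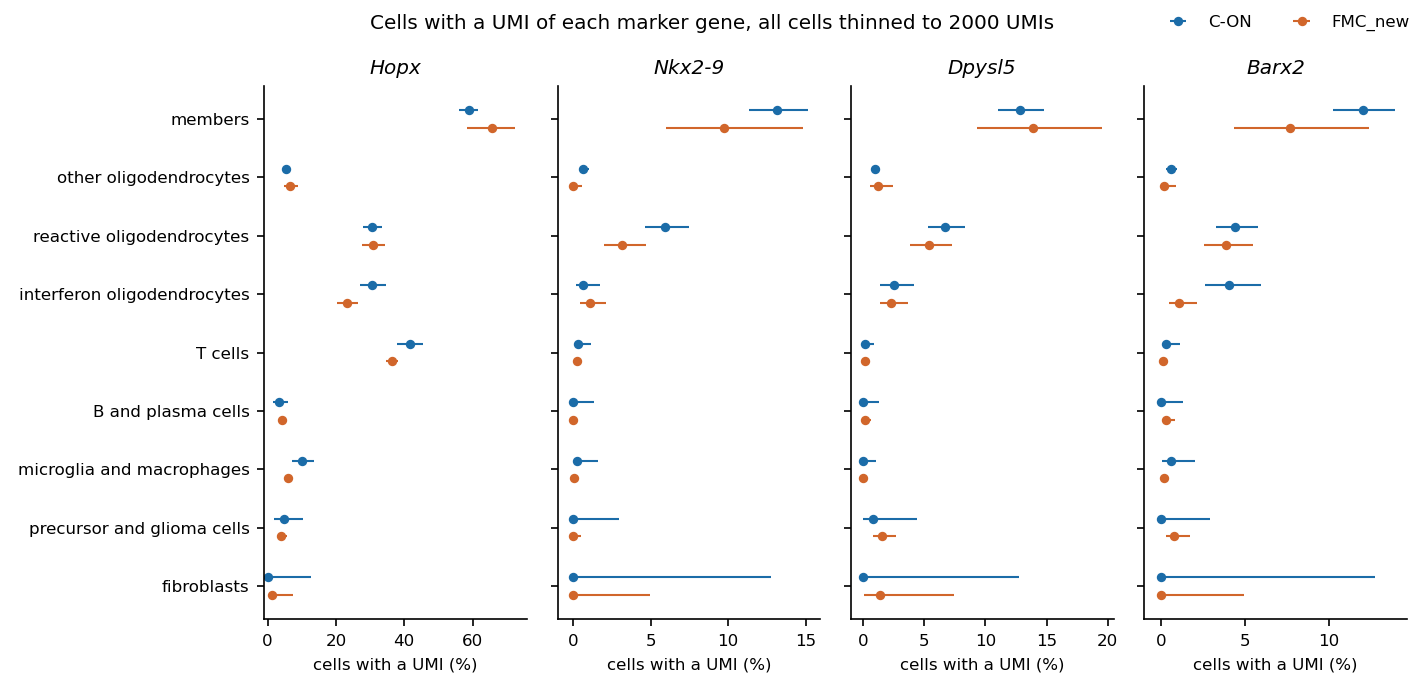
Percent of cells with a UMI of Hopx, Nkx2-9, Dpysl5 and Barx2 (x axes, which differ in range) in 9 classes of cells (y axis), with every cell thinned to 2000 UMIs; points are the 2 libraries and bars exact 95% binomial intervals. Members were chosen on these genes; outside them Hopx is found in 41.6% and 36.4% of T cells, where Nkx2-9 is found in 0.319% and 0.258%.

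The members made up 22.0% (20.9 to 23.1) of the oligodendrocytes of C-ON but only 8.72% (7.66 to 9.87) in FMC_new. The oligodendrocytes of FMC_new more often went over the limits that exclude a member. Oligodendrocytes with Serpina3n and C4b above 2 UMIs (called reactive here) numbered 1121 in C-ON and 756 in FMC_new, and those with the interferon genes above 2 UMIs numbered 607 and 773. The reactive cells were 19.2% and 29.2% of the oligodendrocytes and the interferon cells 10.4% and 29.8%. Their part in the lower share of members was not tested. Among cells with neither program, a marker sum of at least 2 was found in 31.2% in C-ON and 21.3% in FMC_new. After thinning the marker counts to 2000 UMIs these shares were 12.9% (11.8 to 13.96) and 12.1% (9.95 to 14.5), and the intervals of the libraries overlapped. The programs were still read from all UMIs of a cell, so the states themselves were not set at equal depth. The marker sum was not confined to the quiet cells. With its counts thinned in the same way it reached 2 in 17.9% (15.7 to 20.3) and 17.1% (14.5 to 20.1) of the reactive cells and in 11.9% (9.42 to 14.8) and 9.13% (7.14 to 11.4) of the interferon cells. Thinning left out 292 oligodendrocytes of C-ON and 293 of FMC_new with fewer UMIs.

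**Figure D2:**
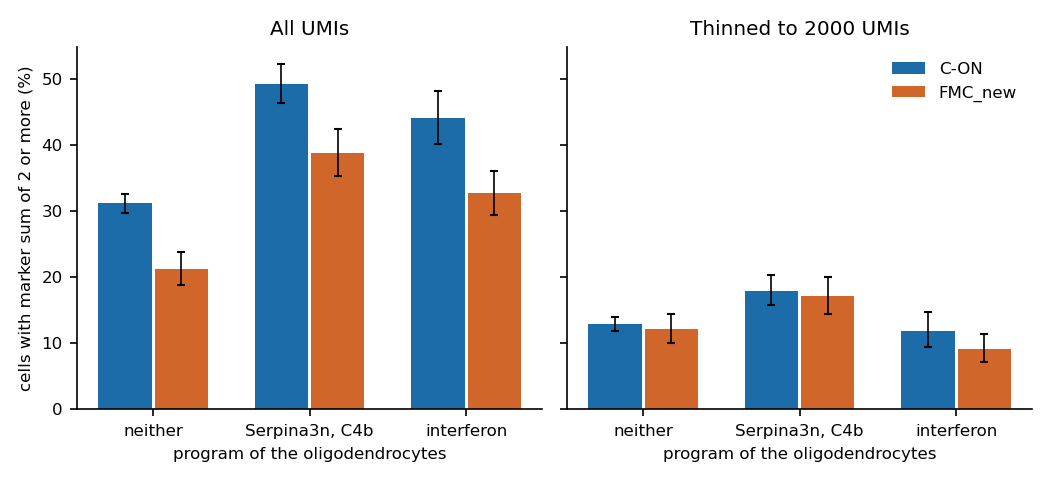
Percent of oligodendrocytes with a marker sum of at least 2 (y axis from 0) among cells with neither program, with the Serpina3n and C4b program and with the interferon program, at full depth and with marker counts thinned to 2000 UMIs. The programs are read at full depth throughout. Bars are libraries and error bars exact 95% binomial intervals; after thinning the cells with neither program reach 12.9% in C-ON and 12.1% in FMC_new.

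Klk6, Anxa5, S100b and Uchl1 were higher in the members and Ptgds, Il33 and Opalin were lower, in each library. Of 7965 genes with at least 10 CPM in each library, 225 (2.82%) were at least 1.5-fold higher in the members and 234 (2.94%) at least 1.5-fold lower, with the interval of the ratio apart from 1 in each library. The 14 genes of the rule were not counted among these. At least 2-fold in each library, 92 genes were higher and 102 lower. The median log2 ratio over all genes counted was 0.01 in C-ON and 0.02 in FMC_new.

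**Figure D3:**
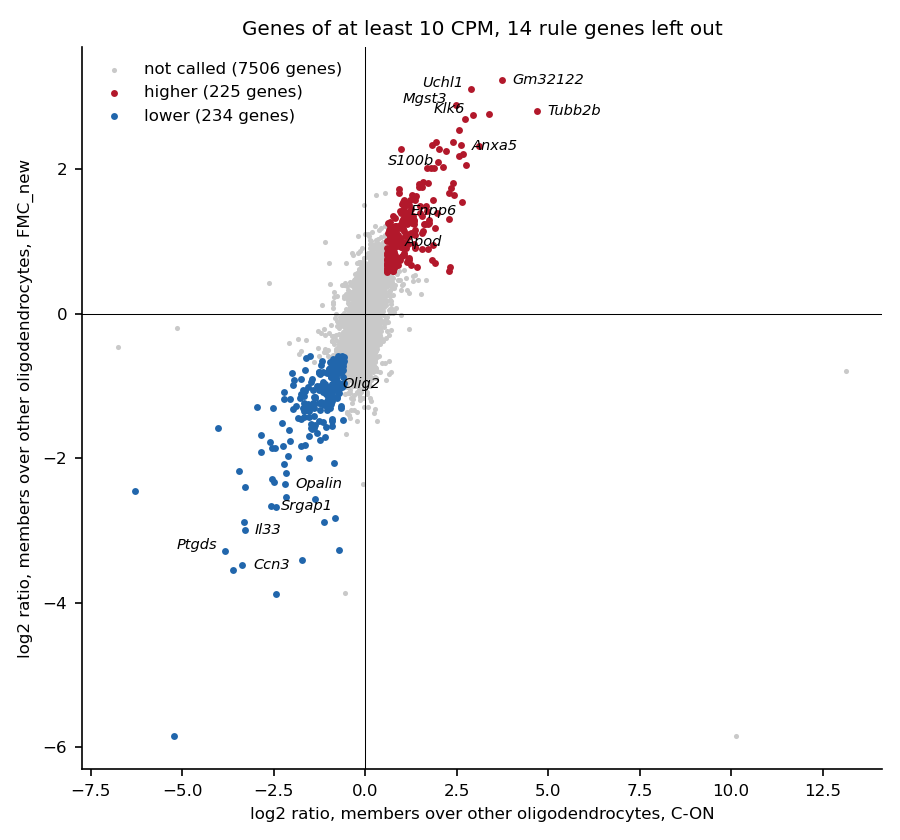
Log2 ratio of the level in members over other oligodendrocytes in C-ON (x axis) and in FMC_new (y axis) for 7965 genes, with the 225 higher and 234 lower genes in color. Klk6, Uchl1 and Anxa5 lie at the upper right and Ptgds, Il33 and Opalin at the lower left; the 2 gray points at the far right are Igkv9-120 and Ighv1-67, whose UMIs in members of C-ON came almost wholly from 1 cell.

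Among the genes called higher, Klk6 came after Apod in the size of its difference in CPM in each library. It stood at 2556 CPM in the members and 330 in the others of C-ON, and at 2482 and 370 in FMC_new. The ratios were 7.74 (7.53 to 7.96) and 6.71 (6.33 to 7.13). Cell by cell, the median was 22.5 UMIs per 10000 in the members against 1.197 in the others of C-ON, and 21.3 against 0 in FMC_new, so the difference was carried by most members and not by a few. Klk6 was found in 96.0% of the members of C-ON and 92.0% of those of FMC_new, against 54.2% and 48.1% of the others. It lies at chr7:43824499-43832030 on the plus strand.

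Uchl1, a ubiquitin hydrolase best known from neurons, stood at 396 against 53.1 CPM in C-ON and 315 against 36.3 in FMC_new, ratios of 7.46 and 8.69. Tubb2b, a beta tubulin, stood at 195 against 7.59 and at 210 against 30.04. It was found in only 31.0% of the members of C-ON and 32.3% of those of FMC_new. At a marker sum of 2 it stood at 16.1 in C-ON and 47.2 in FMC_new, and at 5 or more at 301.5 and 319. Anxa5, which binds phosphatidylserine, stood at 828 against 134 and at 731 against 145, ratios of 6.18 (5.91 to 6.46) and 5.04 (4.56 to 5.57). S100b, a calcium-binding protein, stood at 1586 against 366 and at 1024 against 249. These 4 genes differed between members and others by a larger ratio than the members of the libraries differed from each other.

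Enzymes and signaling genes were among the 20 leading genes too. Mgst3, a microsomal glutathione S-transferase, stood at 405 against 72.8 CPM in C-ON and 376 against 50.8 in FMC_new. Faah, the hydrolase that breaks down anandamide, stood at 93.1 against 25.4 and at 75.3 against 18.5. Cdkn1c, an inhibitor of cyclin-dependent kinases, stood at 131 against 20.6 and at 93.9 against 20.3. Nid1, a basement membrane glycoprotein, was 10.4-fold and 6.81-fold higher, Bace2, an aspartyl protease, 8.60-fold and 5.01-fold, and Dlc1, a GTPase-activating protein, 5.27-fold and 5.20-fold. Rab37, a small GTPase, was 6.60-fold and 6.50-fold higher, Clgn, a chaperone of the endoplasmic reticulum, 4.65-fold and 4.78-fold, and Mmd2 5.87-fold and 5.86-fold.

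The gene at the head of the ranking by the smaller of its ratios was Gm32122, a long noncoding RNA at chr8:96371727-96403862. It stood at 57.6 against 4.29 CPM in C-ON and 28.4 against 3.004 in FMC_new, ratios of 13.4 (10.6 to 17.2) and 9.46 (4.96 to 19.5). It was found in 17.4% of the members of C-ON and 8.41% of those of FMC_new, where the 49 UMIs of the members included 20.4% from 1 cell. The remaining leading genes, Cfap410, C530008M17Rik, Slc34a3, Arfgef3 and Csdc2, were between 3.83-fold and 6.72-fold higher.

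Among the genes called lower, Ptgds had the largest difference in CPM in each library. It stood at 317 CPM in the members and 4521 in the others of C-ON, and at 657 and 6414 in FMC_new, 14.2-fold (13.8 to 14.7) and 9.76-fold (9.19 to 10.4) lower. Its RNA was found in 38.3% and 34.1% of the members against 77.7% and 73.1% of the others. The tenth of the members with the most Ptgds held 87.6% of its UMIs in C-ON and 93.0% in FMC_new, so most members had no UMI of it and a few had many. Il33, a nuclear alarmin cytokine, stood at 26.3 against 259 in C-ON and 53.3 against 424 in FMC_new. Opalin stood at 213 against 978 and at 159 against 817. Ptgds lies at chr2:25466709-25470046 on the minus strand.

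Others of the 15 leading lower genes were Srgap1, a GTPase-activating protein (6.02-fold and 6.31-fold lower), Cadps, which primes dense-core vesicles (5.89-fold and 4.88-fold), Ttc9 (5.39-fold and 6.41-fold), Ifitm3 (4.53-fold and 4.62-fold) and the noncoding 5033421B08Rik and C030029H02Rik. The matrix genes Ccn3, Mgp and Dcn and the immunoglobulin genes Ighv8-12, Igkv8-21 and Ighv1-77 also ranked there. For Ccn3, 23.7% of the UMIs of the others came from 1 cell in C-ON and 35.4% in FMC_new, for Mgp 16.0% and 33.5%, and for Dcn 47.8% and 79.8%. These shares were 26.9% and 10.2% for Ighv8-12, 23.8% and 9.29% for Igkv8-21, and 17.4% and 68.0% for Ighv1-77. In FMC_new, where the members had 7 UMIs of Dcn, its ratio was 0.859 with the rule applied after thinning. With the rule applied to 1 part of the UMIs it was 1.77. In all, 10 of the 234 lower genes were immunoglobulin genes, and 15 had over 20% of the UMIs of the others in 1 cell of a library. The part of captured or free RNA of other cells in these values was not tested, and no doublet caller was run.

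The markers of other cell types moved with the groups as follows. The list of B and plasma cell genes summed to 194 CPM in the members and 562 in the others of C-ON, and to 952 and 2044 in FMC_new, with 0 of 8 genes higher in the members of C-ON and 2 of 8 in FMC_new. The microglia and macrophage list summed to 50.6 and 156, and to 636 and 958, with 1 of 12 genes higher in each library. The fibroblast list summed to 9.51 and 32.4, and to 26.7 and 72.3, with Lum at 0 in the members of each library. The neutrophil list went the other way in FMC_new, at 466 against 77.6, where Retnlg was found in 0.885% of the members, and stood at 0.161 and 0.279 in C-ON. Neuron genes were near 0 in C-ON, at 9.83 against 4.57, and stood at 37.7 against 53.8 in FMC_new. The pituitary list summed to 7.495 against 9.874 in C-ON and to 15584 against 20581 in FMC_new. Its genes were split unevenly in FMC_new, with Prl at 10999 CPM in the members and 8672 in the others, and Gh at 3152 and 10659. The Schwann cell list, which shares Pmp22 and Sox10 with oligodendrocytes, was higher in sum in the members, at 1691 against 1412 and at 1593 against 1227. Of its 10 genes, 4 were higher in the members of C-ON and 5 in those of FMC_new, with Prx at 0 in the members of each library. The astrocyte list summed to 102 against 82.6 in C-ON and 106 against 127 in FMC_new, with 2 and 1 of its 8 genes higher in the members. At least 2 of its UMIs were held by 25.5% of the members of C-ON against 10.8% of the others (19.9% against 11.1% in FMC_new). These shares are at full depth, where the members had more UMIs a cell. Cells were then left out where any 1 list of leukocytes, endothelial and mural cells, fibroblasts, astrocytes or precursor and glioma cells held at least 2 UMIs. The Schwann cell, neuron and pituitary lists were not used for this. Klk6 was then 8.05-fold higher, Ptgds 14.9-fold lower and Opalin 4.73-fold lower in C-ON, where 726 members remained. In FMC_new 10 members remained, too few to give ratios for single genes. Of 66 named genes that could be counted, 25 lost their call. Among these were Gm32122, Clgn, Csdc2, Faah, Srgap1, Ttc9, Cadps, Apod, Olig2, Carns1, Xaf1 and Adamts1. A call needs each library, so a call lost under this setting, here or below, depends in part on those 10 cells.

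The members were chosen on the same UMIs that the levels were read from. With the UMIs of each cell split at random, the rule applied to 1 part and the levels read from the other, Klk6 was 5.76-fold higher in C-ON and 5.19-fold higher in FMC_new, and Anxa5 5.57-fold and 5.16-fold. Ptgds was 18.5-fold and 17.4-fold lower. In cells of 4000 to 10000 UMIs alone, Klk6 was 7.11-fold and 9.33-fold higher and Ptgds 10.5-fold and 8.92-fold lower. With the rule applied after thinning each cell to 2000 UMIs, the ratios were 3.71-fold (C-ON) and 3.92-fold (FMC_new) for Klk6, 4.36-fold and 6.91-fold for Uchl1, and 14.6-fold and 14.4-fold lower for Ptgds.

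The levels followed the marker sum on both sides of the threshold. At a sum of 1, just outside the rule, the level of Klk6 in C-ON and FMC_new was 597 and 661 CPM, and at a sum of 2, just inside, it was 1112 and 1121. It stood at 237 and 295 at a sum of 0 and reached 3280 and 3581 at 5 or more. Ptgds stood at 5286 and 6832 at a sum of 0, at 2316 and 4785 at a sum of 1, at 687 and 1602 at a sum of 2, and at 138 and 94.7 at 5 or more. Cells at a sum of 1 lay between those at 0 and those at 2 for both genes.

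Opalin stood at 1051 CPM at a sum of 0 and 88.5 at 5 or more in C-ON, with lower values at each step. In FMC_new it stood at 849 and 45.6 at the ends, with 135 at a sum of 3 and 196 at a sum of 4. Uchl1 stood at 40.8 and 32.4 at a sum of 0 and at 524 and 465 at 5 or more. Mog, by contrast, stood between 1988 and 2171 at both ends in C-ON and between 1242 and 1777 over all sums in FMC_new. The median depth of the cells also differed along the sum, from 6088 to 11424 UMIs in C-ON and from 4590 to 9729 in FMC_new, and its part in the order was not tested.

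**Figure D4:**
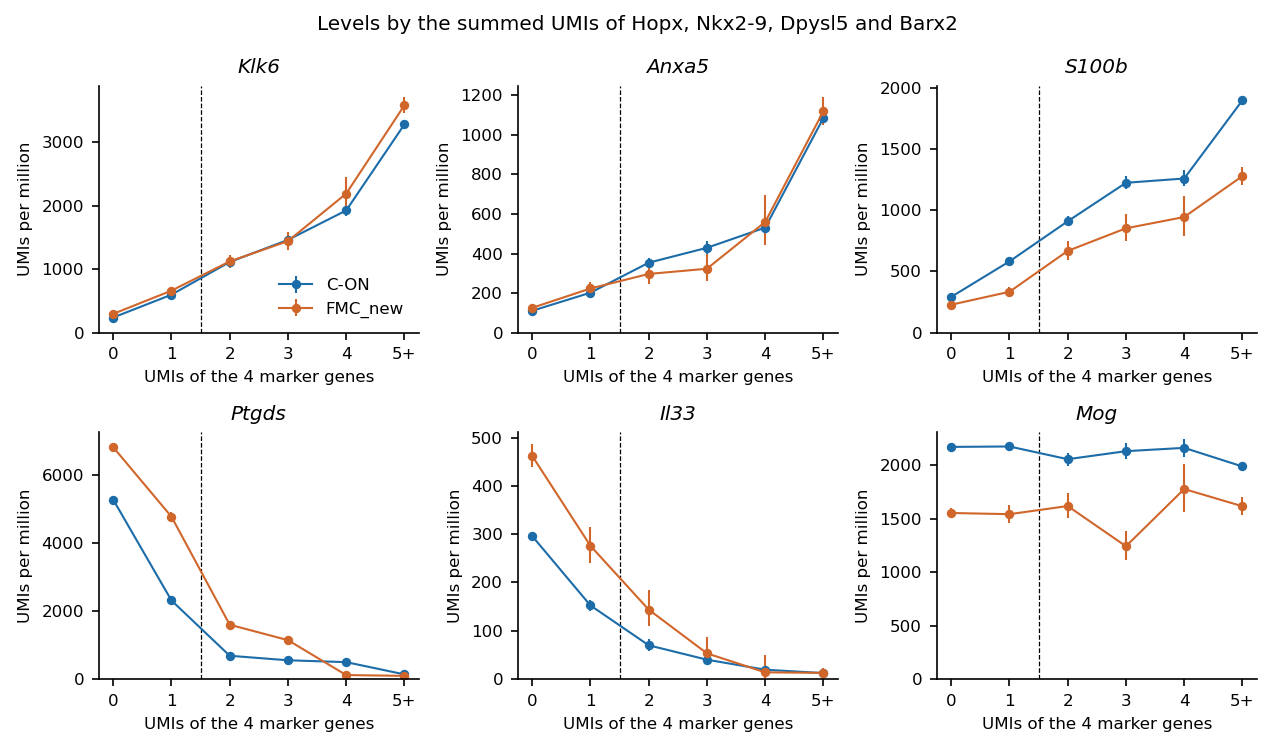
Levels of Klk6, Anxa5, S100b, Ptgds, Il33 and Mog (CPM, y axes from 0) in oligodendrocytes with neither program by the summed UMIs of Hopx, Nkx2-9, Dpysl5 and Barx2 (x axis, 5+ for 5 or more), with exact 95% Poisson intervals; the dashed line is the threshold of the rule. Klk6 goes from 237 to 3280 in C-ON and Ptgds from 5286 to 138, while Mog ends at 1988 from 2171.

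Members also varied by which markers they held. Those with all 4 markers (126 cells in C-ON and 12 in FMC_new) had Klk6 at 4094 CPM (3997 to 4192) and 4816 (4466 to 5186), and Ptgds at 32.4 (24.3 to 42.2) and 48.1 (19.3 to 99.1). Those with Hopx alone (305 and 93 cells) had Klk6 at 1642 (1591 to 1695) and 2001 (1886 to 2122), and Ptgds at 612 (581 to 645) and 874 (798 to 955). Those without Hopx (65 and 10 cells) had Klk6 at 902 (825 to 984) and 435 (312 to 590). Their median depths were 13764, 7818 and 8403 UMIs in C-ON and 10515, 5851 and 7326 in FMC_new.

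Of 19 genes counted that tell mature oligodendrocyte types apart, 6 were higher and 7 lower. The counts of this list and of those below stand beside 2.82% higher and 2.94% lower of all genes counted. Beside Klk6, Anxa5 and S100b, the higher genes were Pmp22, a myelin protein of peripheral nerve (at the limit in C-ON and 1.63-fold in FMC_new), Apod, a lipid carrier (1.74-fold and 1.99-fold), and Cd59a, an inhibitor of complement (1.95-fold and 1.93-fold). Beside Ptgds, Il33 and Opalin, the lower genes were Grm3, a glutamate receptor (2.16-fold and 1.96-fold), Jph4, a junctophilin (2.22-fold and 2.82-fold), Apoe, a lipoprotein (3.22-fold and 2.36-fold), and Hhip, which binds Hedgehog ligands (1.51-fold and 1.58-fold). Pmp22 and Hhip lay near the limit and lost their calls under several other settings, among them the threshold at a marker sum of 1, thinning and cells of 4000 to 10000 UMIs. The medians of this list were 0.801 in C-ON and 0.960 in FMC_new, beside 1.00 and 1.01 over all genes counted.

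Of 20 myelin genes counted, 1 was higher and 4 were lower, beside 2.82% and 2.94% of all genes counted, with medians of 0.899 and 0.973. Mbp stood at 7530 CPM in the members and 8465 in the others of C-ON and at 8058 and 8699 in FMC_new. The lower genes were Opalin, Mal, a proteolipid (1.51-fold and 1.57-fold), and the tetraspanins Tspan2 (2.19-fold and 2.41-fold) and Cd9 (3.37-fold and 2.17-fold). Mal lost its call with the threshold at a marker sum of 1, with the mean of per-cell CPM and in cells of 4000 to 10000 UMIs. The only higher gene was Apod.

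Of 21 genes of cholesterol synthesis counted, 4 were higher and 0 lower, beside 2.82% and 2.94% of all genes counted. These were Mvd (1.57-fold and 2.24-fold), Pmvk (1.56-fold and 1.54-fold), Fdps (1.54-fold and 1.53-fold) and Lss (1.59-fold and 1.71-fold). The medians were 1.44 and 1.33. None of the 4 met the limits in each library with the threshold at a marker sum of 1, Pmvk, Fdps and Lss did not in cells of 4000 to 10000 UMIs alone, and Mvd, Pmvk and Lss did not with the rule applied after thinning. Of 19 genes of sphingolipid and fatty acid synthesis, Gal3st1, which makes sulfatide, was higher (1.58-fold and 1.67-fold) and Fads1, a fatty acid desaturase, was lower (3.58-fold and 2.73-fold). Gal3st1 lost its call with the threshold at a marker sum of 1 and in cells of 4000 to 10000 UMIs. Fads1 lost its call with the rule applied to 1 part of the UMIs. Without cells holding UMIs of other cells, with 10 members left in FMC_new, neither was called.

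Of 18 genes counted from a list of transcription factors of the lineage, 2 were lower and 1 higher, beside 2.94% and 2.82% of all genes counted. Olig2, a basic helix-loop-helix factor of the lineage, stood at 84.9 CPM in the members and 159 in the others of C-ON and at 71.9 and 141 in FMC_new. Creb5 was 1.75-fold and 1.81-fold lower and lost its call with the threshold at a marker sum of 1. Carns1, the higher gene (2.03-fold and 2.48-fold), is an enzyme of carnosine synthesis and no transcription factor. Without cells holding UMIs of other cells, with 10 members left in FMC_new, neither Olig2 nor Carns1 was called. Sox10 stood at 354 and 384 in C-ON and at 275 and 291 in FMC_new. Of 32 positional homeobox and forebrain genes, including 10 Hox genes, 1 had enough UMIs to be counted and 0 were called.

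Genes of early oligodendrocytes gave no common direction, with 2 higher and 1 lower of 11 counted, beside 2.82% and 2.94% of all genes counted. Enpp6, an enzyme known from newly formed oligodendrocytes, stood at 471 CPM in the members and 243 in the others of C-ON and at 467 and 174 in FMC_new. Bcas1, another such gene, was not called, at 431 against 540 in C-ON and 468 against 480 in FMC_new. Klk6 and Opalin, which are also on this list, were the other 2 calls. Both are named above among the genes that tell mature types apart, so the calls of this list are not of early cells alone.

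Cytoskeletal genes other than Dpysl5 included 3 higher and 0 lower of 17 counted, beside 2.82% and 2.94% of all genes counted. These were Map1b, a microtubule-associated protein (2.50-fold and 2.38-fold), Tppp3, which promotes tubulin polymerization (1.68-fold and 2.18-fold), and Tubb3, a beta tubulin of neurons (1.73-fold and 1.97-fold). Dpysl2, a relative of Dpysl5, stood at 352 CPM in the members and 373 in the others of C-ON and at 342 and 344 in FMC_new.

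Calcium-binding genes were called in both directions, and several of these calls depended on the settings. Of 11 counted, 5 were higher and 2 lower, beside 2.82% and 2.94% of all genes counted, with medians of 1.24 and 1.42. Beside Anxa5 and S100b, S100a1 (1.85-fold and 2.13-fold), S100a6 (2.58-fold and 2.12-fold) and S100a13 (1.52-fold and 1.67-fold) were higher. S100a10 (2.75-fold and 1.87-fold) and its partner Anxa2 (2.67-fold and 2.98-fold) were lower. S100a10 lost its call with the rule applied after thinning and in cells of 4000 to 10000 UMIs. Anxa2 lost its call with the rule applied to 1 part of the UMIs. S100a13 lost its call with the threshold at a marker sum of 1 and in cells of 4000 to 10000 UMIs. Without cells holding UMIs of other cells, with 10 members left in FMC_new, S100a6 and S100a13 lost theirs. In energy metabolism 2 of 18 genes were higher and 0 lower, beside the same shares of all genes counted. Ldhb, a lactate dehydrogenase subunit, stood at 455 CPM against 130 in C-ON and 408 against 100.4 in FMC_new, and Gapdh was 1.68-fold and 1.72-fold higher.

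The lists that follow also stand beside 2.82% higher and 2.94% lower of all genes counted. Of 23 genes of axon contact and adhesion, Sema5a, a semaphorin (2.60-fold and 3.11-fold), and Adgrb3, an adhesion receptor (1.73-fold and 2.27-fold), were higher, and Sema6a (1.96-fold and 2.46-fold) lower. Of 19 genes of channels, gap junctions and transporters, the gap junction gene Gjb1 (1.60-fold and 1.71-fold) and the mechanosensitive channel gene Piezo2 (2.93-fold and 2.57-fold) were higher, and the potassium channel gene Kcna1 (1.81-fold and 1.55-fold) lower. Gjb1, Piezo2 and Kcna1 lost their calls in cells of 4000 to 10000 UMIs. Kcna1 also did with the threshold at a marker sum of 1, with the mean of per-cell CPM and with stricter limits on reactive and interferon genes. Without cells holding UMIs of other cells, with 10 members left in FMC_new, Sema5a, Adgrb3, Gjb1 and Piezo2 lost theirs. Of 14 matrix and growth factor genes, Pdgfa (1.59-fold and 1.62-fold) and Sparc (2.38-fold and 1.59-fold) were higher and Adamts1, a protease, lower (11.0-fold and 4.50-fold). Pdgfa and Sparc lost their calls with the threshold at a marker sum of 1 and without the filter on cells, and Pdgfa also after thinning and in cells of 4000 to 10000 UMIs. Adamts1 lost its call without cells holding UMIs of other cells.

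Of 16 genes of immediate early response and dissociation stress, Dusp1, a phosphatase of MAP kinases, was 1.57-fold and 1.76-fold lower. Of 5 interferon genes counted, Xaf1 was lower (1.74-fold and 1.86-fold). Dusp1 and Xaf1 lost their calls with the threshold at a marker sum of 1 and in cells of 4000 to 10000 UMIs, and Dusp1 also without the filter on cells. Of 8 feedback genes of the MAPK pathway, on which loss of Nf1 acts, 0 were called. In lists this short, 0 or 1 call lies near the share over all genes counted (2.82% higher and 2.94% lower). Nf1 itself stood at 62.3 CPM in the members and 67.6 in the others of C-ON and at 59.1 and 62.3 in FMC_new, and these counts do not separate its alleles. Of 10 genes known from reactive oligodendrocytes, Klk6 was higher and Il33, Cd63 (3.22-fold and 2.20-fold), Anxa2 and Sgk1 (1.58-fold and 1.56-fold) lower. Sgk1 lost its call with the threshold at a marker sum of 1 and in cells of 4000 to 10000 UMIs.

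The split by marker sum was repeated in oligodendrocytes that the rule left out. The reactive cells were divided by the marker sum, which gave 553 cells with at least 2 UMIs and 568 with fewer in C-ON, and 294 and 462 in FMC_new. Of 7967 genes counted there, 230 (2.89%) were higher and 260 (3.26%) lower. Of the 225 genes higher in the members, 160 were also called higher there, which is 71.1% of the first list and 69.6% of the other. Of 204 lower genes that could be counted, 157 were called lower there, 77.0% of these and 60.4% of the other list. These cells and the members share libraries and the choice by marker sum, but not cells.

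Within the reactive cells, Uchl1 was 8.58-fold and 9.43-fold higher, Mgst3 6.24-fold and 6.86-fold, Anxa5 5.88-fold and 6.06-fold, and S100b 4.69-fold and 4.51-fold. Klk6 was 3.70-fold and 2.18-fold higher, with ratios smaller than those in the members. Ptgds was 8.996-fold and 22.3-fold lower, and Opalin 4.15-fold and 4.37-fold lower.

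In the interferon cells the ratios of Klk6 and Il33 were smaller. There, 268 cells with at least 2 UMIs were set against 339 in C-ON and 253 against 520 in FMC_new, and of 8074 genes 135 (1.67%) were higher and 166 (2.06%) lower. Of 208 higher genes of the members that could be counted, 104 were called higher, 50% of these and 77.0% of the other list. Of 217 lower genes, 89 were called lower. Uchl1 was 6.04-fold and 4.92-fold higher and Mgst3 4.63-fold and 3.99-fold, whereas Klk6 was 1.41-fold and 1.88-fold higher and Il33 1.73-fold and 2.24-fold lower. Tubb2b lay on opposite sides, 4.06-fold higher in C-ON and at a ratio of 0.867 in FMC_new. The differences in ratio between the states were not tested.

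**Figure D5:**
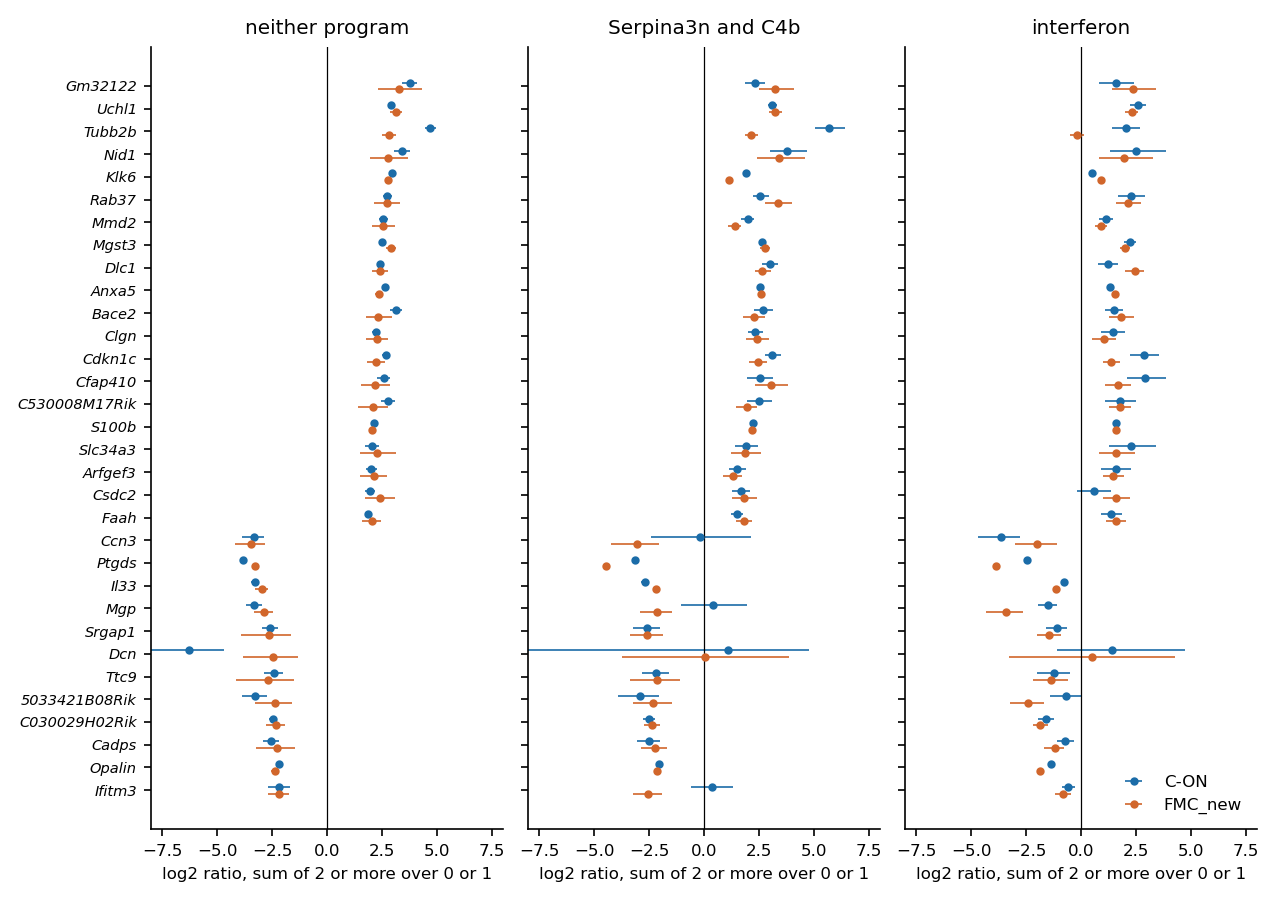
Log2 ratio of cells with a marker sum of 2 or more over cells with 0 or 1 (x axes), for leading genes of the members (y axis), among oligodendrocytes with neither program (the members against the others), with the Serpina3n and C4b program and with the interferon program. Points are libraries and bars exact 95% intervals; Uchl1 and Mgst3 stay to the right and Ptgds to the left in all 3 panels, whereas Tubb2b in interferon cells of FMC_new, and Ccn3, Mgp and Dcn, do not keep their side or have wide intervals.

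Fewer genes were called between members and reactive cells than between members and interferon cells. Against reactive cells, whatever their marker sum, 27 of 7975 genes (0.339%) were higher in the members and 68 (0.853%) lower. Against interferon cells, 195 of 8048 (2.42%) were higher and 346 (4.3%) lower. A marker sum of at least 2 was itself found in 49.3% and 38.9% of the reactive cells and in 44.2% and 32.7% of the interferon cells. These counts share the members and are given side by side only. The rule itself set the members apart from each group, by Serpina3n and C4b or by the interferon genes. The counts therefore include genes that go with that choice, such as Irgm2, Ifi47 and Gbp2, lower in the members than in interferon cells.

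Most of these calls were not made between members and reactive cells of the same marker sum of at least 2, a comparison added after seeing the data. Of 7936 genes, 21 (0.265%) were then higher in the members, 3 of them among the 27 above, and 15 (0.189%) lower, 14 of them among the 68. Tnr, a matrix protein gene, was higher either way, 2.13-fold and 1.86-fold against all reactive cells and 2.21-fold and 3.74-fold against those of the same sum. Its level differed more between the libraries, at 16.4 CPM in the members of C-ON and 115 in those of FMC_new. In all reactive cells Tnr stood at 7.685 and 61.6. Il33 was lower either way, 7.98-fold and 8.52-fold and then 2.42-fold and 3.03-fold, as was Rab3b, a small GTPase, 3.60-fold and 3.74-fold and then 3.42-fold and 3.73-fold. Uchl1 was 1.63-fold and 1.66-fold higher against all reactive cells, and stood at ratios of 1.04 (0.991 to 1.09) and 0.903 (0.813 to 1.001) against those of the same sum. Ldhb, Tubb2a, Cd63 and Cd9 were called against all reactive cells and not against those of the same sum. Ptgds stood at 317 CPM in the members and 371 in those reactive cells of C-ON, but at 657 and 208 in FMC_new.

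Klk6 was not highest in the members among all oligodendrocytes. It stood at 6233 CPM in the interferon cells of C-ON and 5585 in those of FMC_new, and at 2088 and 3537 in the reactive cells, against 2556 and 2482 in the members. Klk8, a neighboring protease gene of the same family, stood at 5.56 in the members and 789 in the interferon cells of C-ON and at 4.64 and 193 in FMC_new. The levels of Anxa5, S100b, Mgst3 and Uchl1 were higher in the members than in all reactive or all interferon cells, and within 1.11-fold of those in reactive cells of the same marker sum. Anxa5 stood at 828 in the members, 532 in reactive and 328 in interferon cells of C-ON, and at 731, 449 and 224 in FMC_new. In reactive cells with a marker sum of at least 2, Anxa5 stood at 808 in C-ON and 781 in FMC_new, and Mgst3 at 401 and 381 against 405 and 376 in the members. Art3 was 5.26-fold and 5.07-fold higher in the members than in interferon cells. B2m and H2-D1, genes of antigen presentation, were at 105 and 154 in the members against 3039 and 5195 in the interferon cells of C-ON, and at 380 and 419 against 2823 and 4165 in FMC_new.

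Members lay near each other when the 14 genes of the rule were not used. For each oligodendrocyte, the 15 nearest were found from 30 components of 2000 variable genes, with all cells at 2000 UMIs. Of the neighbors of a member, 50.3% were members in C-ON, where members were 22.2% of the cells, and 32.0% were members in FMC_new, where they were 8.48%. Of the neighbors of other oligodendrocytes, 11.1% and 7.28% were members, and of those of reactive and interferon cells together 19.9% and 6.18%. Members with mostly members around them were 56.2% in C-ON and 16.4% in FMC_new, where members were also the smaller share of the cells. The other neighbors can include reactive and interferon cells with a marker sum of at least 2, which numbered 294 and 253 in FMC_new. The cause of the difference between the libraries was not tested.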

How the data were processed

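Single-cell suspensions of Nf1OPG optic nerve, cleared of debris and myelin, were measured as 2 libraries with a 10x Genomics 5′ kit. The authors deposited raw UMI counts per gene and barcode, as whole numbers without normalization. The submitters' processing notes name Cell Ranger 7.2.0, Seurat 5 and the mm10 build. The paper names an earlier Cell Ranger version for its mouse optic nerve data, and which one gave these counts could not be told. The use of intronic reads is not given in the sources used here. Cells with 500 to 5000 genes, 500 to 20000 UMIs and at most 5% mitochondrial UMIs were kept (25652 cells, 65753232 UMIs in C-ON and 99191180 in FMC_new), and no doublet caller was run. UMIs were summed over the cells of a group in a library and scaled to a total of 1000000 (CPM). Ratios carry exact conditional binomial intervals, levels exact Poisson intervals and shares Clopper-Pearson intervals, all at 95%. A gene was called where its ratio was at least 1.5-fold and its interval lay apart from 1 in each library, among genes of at least 10 CPM. No p-values were computed, since both libraries are of 1 condition.

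Cells of T, B, microglial and other classes were taken from marker genes with at most 1 UMI of Mag, Mog, Ermn and Aspa. Named genes are the 14 rule genes, called or defining genes of the lists, and the 20 leading higher and 15 leading lower genes. Other genes, among them Nf1, Klk8 and the genes named in the comparisons with reactive and interferon cells, were chosen after their values were seen. The members and lists were chosen with earlier results of these data known, and some genes of the lists are not reported here and were left out of the lists. Counts were handled with pandas 2.3.3 and numpy 2.4.6 (Python 3.11.15), intervals with scipy 1.17.1 and neighbors with scikit-learn 1.9.0, and edgeR 4.0.16 gave 1 alternative, its TMM scaling. The counting script was tested on simulated data.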

Additional observations from a re-analysis of the deposited data

Results flagged for a closer look

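Cells that met the gene part of the rule were also found among the barcodes that the filters left out. In C-ON, 175 of 2011 such barcodes met it, of which 108 had over 20000 UMIs and 106 over 5000 genes. In FMC_new, 45 of 4523 met it, of which 16 had over 20000 UMIs and 25 over 5000 genes. These barcodes enter no comparison above, and whether they hold more than 1 cell was not tested.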

How the results depend on the processing

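The share of members was 17.9% over both libraries, and 8.72% to 22.0% with either library left out. With either library left out, so that a gene needed to be called in only 1, the count of higher genes was 350 to 497 against 225, and that of lower genes 375 to 686 against 234. Taking a marker sum of at least 1 gave a share of 27.8%, and allowing 0 UMIs of the reactive and interferon genes gave 7.99%. Without cells holding at least 2 UMIs of other cell types, 54 genes were higher and 89 lower, with 10 members left in FMC_new, and the ratio of Dusp1 turned around (mean log2 of 0.22). The rule applied after thinning gave 382 lower genes. Without the limit on low levels 382 genes were higher and 519 lower, and with 50 CPM 101 and 106. A fold of 2 gave 92 and 102, and the lower fold limit tried gave 489 and 458. TMM scaling moved the median ratio by -0.01 and 0.03 on the log2 scale and gave 228 and 225. Without the barcodes found in both libraries, an alternative chosen after seeing the data, the share was 17.9% and the counts 231 and 235. Of the named genes that could be counted, 20 of 73 lost their call in cells of 4000 to 10000 UMIs, 18 of 82 at a marker sum of at least 1 and 25 of 66 without cells holding UMIs of other cells. Against reactive cells of a marker sum of at least 2, also added, 21 genes were higher (27 against all reactive cells) and 15 lower (68). The cause was not tested. No paired analysis was possible because the libraries form 1 group. Most members held 0 UMIs of Nkx2-9, of Dpysl5 and of Barx2.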
